A study of Mus musculus with 13 samples.

Results

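The 8 genes described here were measured in the mouse ileum and colon, with and without vancomycin: Lyz1, Ang4, Itln1, Mptx1, Mptx2, Pla2g2a, Nupr1 and Pnliprp2. They were grouped under the name of Paneth cell secretory genes other than defensins, and were found by gene symbol in the array annotation, in which each of the 8 has 1 probe set among 19572 named probe sets for 19505 genes. The list was drawn up with earlier results of these data known, and Pnliprp2 was chosen by its measured difference between vancomycin and no antibiotic ilea, so its ileal values are a description here and carry no p-value. All mice were FVB females with a mammary carcinoma that expresses human HER2, also those without antibiotic. Vancomycin, a drug that blocks cell wall synthesis mainly in Gram-positive bacteria, was given in drinking water at 200 mg/L from 4 weeks of age. Tissues were taken at 9 weeks, when tumours measured 150 mm3, from 3 vancomycin ilea, 3 ilea without antibiotic, 3 vancomycin colons and 4 colons without antibiotic. The labels do not say that each array comes from a separate mouse, so the p-values measure only the spread between these arrays, which may be technical.

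Paneth cells sit at the base of the crypts of the small intestine and release granules of antimicrobial proteins into the lumen. The mouse colon normally holds few or none, and its crypt base carries other secretory cells that share part of the same gene set. Among the 8 genes, Lyz1 encodes the lysozyme that cuts the bacterial cell wall, Ang4 a microbicidal ribonuclease, Itln1 a lectin for microbial sugars, Mptx1 and Mptx2 the mucosal pentraxins, and Pla2g2a a secreted phospholipase that attacks bacterial membranes. Pnliprp2 encodes a lipase related to pancreatic lipase, with activity on galactolipids, and is best known from the exocrine pancreas. Nupr1 is a small nuclear stress-response protein and not a granule protein, so the name of the group describes it poorly.

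The promoters of 3 of these genes are shown because the results below turn on the paired behaviour of Mptx1 and Mptx2 and on Pnliprp2. The sequences are the 250 bases before the gene start in RefSeq's GRCm38.p6 assembly, 5′ to 3′ on the strand of the gene, and 7 of the 8 genes had an entry (all but Pla2g2a). That assembly is of C57BL/6J mice, not of FVB. Capitals in the Mptx1 and Mptx2 sequences mark bases that were identical in an alignment of the pair, 198 of 228 aligned bases or 86.8%. Mptx1 stands at chr1:174330268-174330517 on the plus strand, Mptx2 at chr1:173277757-173278006 on the minus strand and Pnliprp2 at chr19:58759473-58759722 on the plus strand. Capitals in Pnliprp2 mark CTTTGA, the core recognised by TCF/LEF factors, whose first base lies at position -167 from the start.
Mptx1: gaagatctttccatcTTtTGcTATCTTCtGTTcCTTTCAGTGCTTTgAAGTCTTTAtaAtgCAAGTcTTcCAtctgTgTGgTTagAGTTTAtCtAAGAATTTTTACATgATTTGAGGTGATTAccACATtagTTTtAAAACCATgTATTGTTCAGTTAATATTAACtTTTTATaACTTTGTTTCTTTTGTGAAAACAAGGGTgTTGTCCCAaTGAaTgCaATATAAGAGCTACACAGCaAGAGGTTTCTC
Mptx2: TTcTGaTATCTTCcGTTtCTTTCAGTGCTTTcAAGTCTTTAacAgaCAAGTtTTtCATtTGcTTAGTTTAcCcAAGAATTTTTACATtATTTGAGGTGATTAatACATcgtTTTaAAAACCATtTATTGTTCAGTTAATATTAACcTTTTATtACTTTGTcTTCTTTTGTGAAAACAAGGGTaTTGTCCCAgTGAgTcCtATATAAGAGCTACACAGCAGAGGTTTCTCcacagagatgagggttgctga
Pnliprp2: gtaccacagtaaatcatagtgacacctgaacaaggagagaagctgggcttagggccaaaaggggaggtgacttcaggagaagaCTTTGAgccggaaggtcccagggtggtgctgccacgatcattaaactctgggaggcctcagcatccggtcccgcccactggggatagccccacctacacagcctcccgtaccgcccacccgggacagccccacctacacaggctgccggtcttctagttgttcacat
On either strand, CTTTGA occurred in 13.8% of 32851 promoter windows of the same length, and in the windows of Mptx1 and Pnliprp2 among the 7 genes. TATAAA, the letters of a TATA box, occurred in 12.4% of windows and in that of Mptx1. Both Mptx1 matches lay on the minus strand, at -198 and -82, so they do not mark a TATA box of that gene. Only exact matches were counted, and ATATAAGAG, which stands near the 3′ end of both pentraxin windows, was not. TTTATG, a CDX core, occurred in 10.8% of windows and in that of Itln1. These matches are letters in a window and describe no binding.

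All values are the authors' RMA values on the log2 scale, on which a difference of 1 is nominally a doubling. Levels of different genes are not compared, because each probe set has its own brightness. Array medians lay between 7.98 and 8.14. Mptx2, Pla2g2a and Nupr1 reached values above 16, the limit of a 16-bit scanner, so their differences need not be exact intensity ratios. The labelled tissues fit their marker genes: all 12 enterocyte genes of the small intestine were higher in ileum than in colon, both with and without vancomycin. Of them 11 passed an adjusted p of 0.05 (limma) in each comparison, where 7.67% and 9.59% of all probe sets passed as higher. Vancomycin ileum replicate 11 stood apart, since its correlation with the arrays of its group averaged 0.977, where replicates 13 and 14 had 0.987 and 0.983. Its mean over 10 smooth muscle genes was 14.44, where vancomycin replicates 13 and 14 had 13.48 and 13.03 and the ilea without antibiotic 12.78 to 13.05. Its mean over 8 B cell genes was 10.25, where vancomycin replicates 13 and 14 had 7.78 and 7.36 and the ilea without antibiotic 7.47 to 8.13. The ileal vancomycin differences of the 8 genes are therefore given with and without that array.

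**Figure D1:**
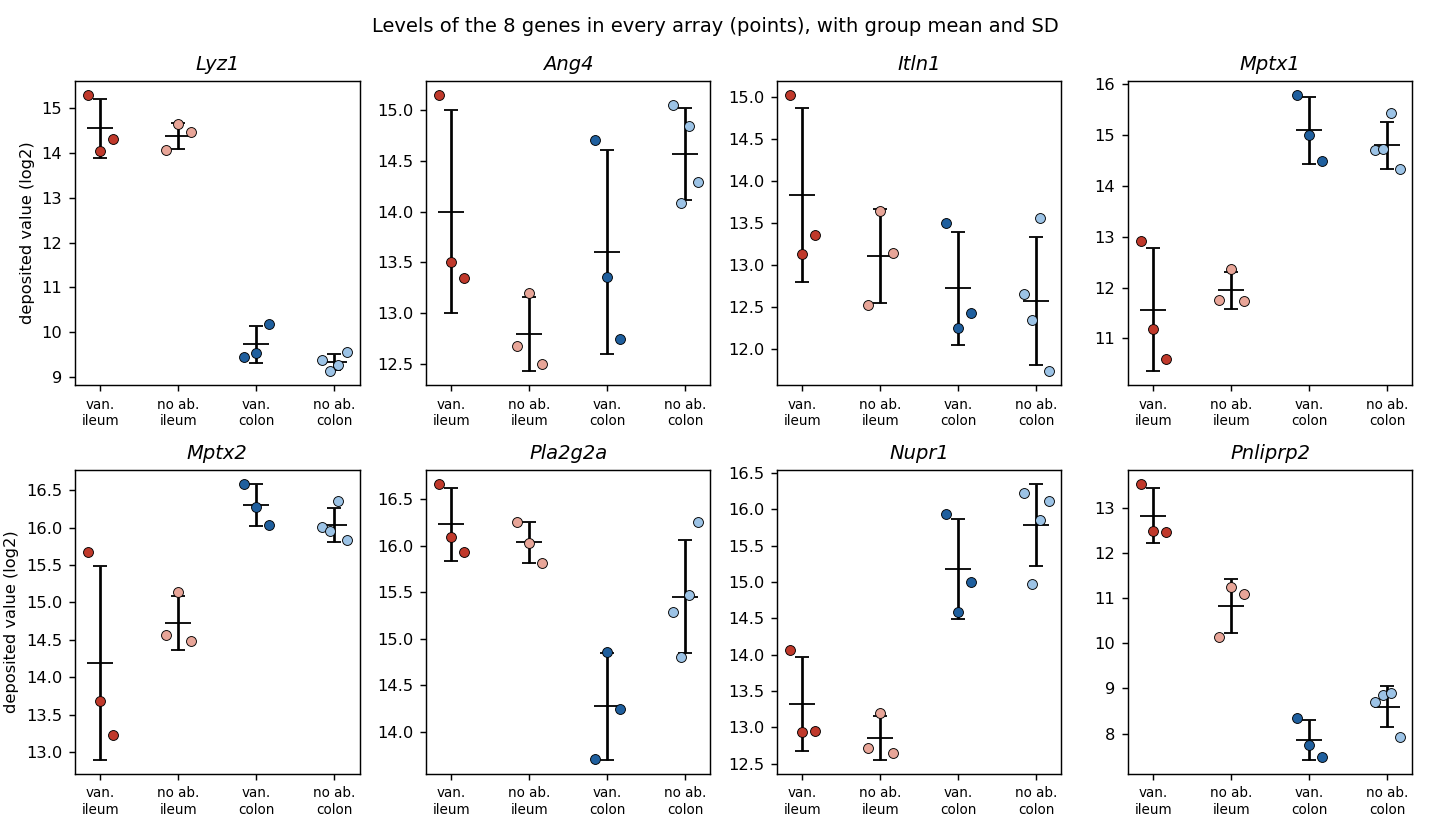
Deposited log2 value (vertical axis, own scale per gene) of each of the 8 genes in every array (points) by tissue and treatment; horizontal ticks and bars are the group mean and SD (n = 3, and 4 in colon without antibiotic). Lyz1 and Pnliprp2 are higher in every ileum than in any colon, while Mptx1, Mptx2 and Nupr1 are lower in every ileum.

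The first question was whether the 8 genes follow the distribution of Paneth cells, that is, whether they are higher in ileum than in colon. Lyz1 and Pnliprp2 were, and Mptx1, Mptx2, Nupr1 and, without antibiotic, Ang4 were instead lower in ileum. In bulk tissue, fewer cells of a type and less RNA per cell cannot be told apart. Without antibiotic 6 of the 8 genes passed the threshold (adjusted p of 0.05 in limma with Benjamini-Hochberg adjustment over 19572 probe sets), 2 as higher and 4 as lower in ileum, where 20.5% of all probe sets passed, 9.59% as higher and 11% as lower. With vancomycin 6 passed, 3 higher and 3 lower, where 15.1% of all probe sets passed, 7.67% as higher and 7.45% as lower. Values did not overlap between the tissues in 6 of 8 genes without antibiotic, against 32.2% of all probe sets, and in 6 of 8 with vancomycin, against 27.4%. Pnliprp2 is in each of these counts, and without it 5 of 7 genes passed in each comparison. The 2 comparisons use separate arrays.

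Lyz1, the lysozyme of Paneth cell granules, was higher in ileum under both treatments. It stood at 15.30, 14.05 and 14.32 in vancomycin ilea, 14.07, 14.64 and 14.46 in ilea without antibiotic, 9.45, 9.54 and 10.19 in vancomycin colons, and 9.39, 9.13, 9.27 and 9.55 in colons without antibiotic. Every ileum was above every colon, and within a tissue the treatments overlapped. The ileum was higher by 4.83 ± 0.29 (SE, 3 against 3 arrays) with vancomycin (adjusted p = 3.21e-08, limma) and by 5.05 ± 0.27 (3 against 4 arrays) without antibiotic (adjusted p = 8.6e-09, limma). Its close paralog Lyz2, the lysozyme of macrophages, was higher in ileum by 1.38 ± 0.34 with vancomycin (adjusted p = 0.0119) and by 1.64 ± 0.32 without antibiotic (adjusted p = 0.00179). The 2 genes are similar in sequence, and how far their probes share signal was not tested.

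Pnliprp2, the lipase, was higher in every ileum than in any colon. It stood at 13.53, 12.47 and 12.46 in vancomycin ilea, 10.13, 11.25 and 11.08 in ilea without antibiotic, 8.34, 7.75 and 7.48 in vancomycin colons, and 8.70, 8.85, 8.89 and 7.93 in colons without antibiotic. The vancomycin ilea were above the other ilea, and these were above every colon. The ileum exceeded the colon by 4.96 ± 0.36 (95% interval 4.18 to 5.74) with vancomycin and by 2.23 ± 0.34 (1.5 to 2.96) without antibiotic. No p is given because the gene was chosen for its ileal values.

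The mucosal pentraxins Mptx1 and Mptx2 were higher in colon than in ileum in these arrays. Mptx1 stood at 12.92, 11.19 and 10.59 in vancomycin ilea, 11.75, 12.37 and 11.73 in ilea without antibiotic, 15.79, 15.01 and 14.48 in vancomycin colons, and 14.70, 14.72, 15.44 and 14.33 in colons without antibiotic. No ileum reached the lowest colon. The ileum was lower by a log2 difference of -3.53 ± 0.49 with vancomycin (adjusted p = 0.00017, limma) and of -2.85 ± 0.46 without antibiotic (adjusted p = 0.000429, limma). Mptx2 stood at 15.67, 13.68 and 13.23 in vancomycin ilea, 14.56, 15.14 and 14.48 in ilea without antibiotic, 16.59, 16.28 and 16.04 in vancomycin colons, and 16.01, 15.96, 16.36 and 15.83 in colons without antibiotic. Again every ileum lay below every colon, though vancomycin ileum replicate 11 came close to the lowest. The ileum was lower by -2.11 ± 0.45 with vancomycin (adjusted p = 0.00487, limma) and by -1.31 ± 0.42 without antibiotic (adjusted p = 0.0401, limma). In a fit of the 2 vancomycin groups alone the adjusted p was 0.0587. The call without antibiotic was lost when any 1 array but no antibiotic ileum replicate 2 was left out (adjusted p = 0.0605 to 0.143). The pair are close paralogs, as the shared promoter letters above show, and the array's ability to separate their transcripts was not tested.

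Nupr1, the nuclear stress protein, was higher in colon too. It stood at 14.06, 12.94 and 12.95 in vancomycin ilea, 12.72, 13.20 and 12.64 in ilea without antibiotic, 15.94, 14.59 and 15.0 in vancomycin colons, and 16.22, 14.97, 15.85 and 16.11 in colons without antibiotic. No ileum overlapped with a colon. The ileum was lower by -1.86 ± 0.39 with vancomycin (adjusted p = 0.00451, limma) and by -2.93 ± 0.37 without antibiotic (adjusted p = 4.66e-05, limma). Of 14 genes of the integrated stress response, to which Nupr1 belongs as a target, 1 passed without antibiotic and 0 with vancomycin. In either direction 20.5% and 15.1% of all probe sets passed. The gene that passed was Atf3, a stress-induced transcription factor, higher in ileum by 1.41 ± 0.26 (adjusted p = 0.0013, limma). The median ileum minus colon difference of the 14 genes was 0.07 with vancomycin and 0.10 without antibiotic. Over all probe sets it was -0.04 in both comparisons.

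Ang4, the microbicidal ribonuclease, differed between tissues in the mice without antibiotic. It stood at 15.15, 13.50 and 13.35 in vancomycin ilea, 12.68, 13.20 and 12.50 in ilea without antibiotic, 14.71, 13.36 and 12.75 in vancomycin colons, and 15.05, 14.09, 14.84 and 14.29 in colons without antibiotic. Without antibiotic the ilea lay below every colon, and with vancomycin the tissues overlapped. The ileum minus colon difference was 0.39 ± 0.50 with vancomycin (adjusted p = 0.682, limma) and -1.77 ± 0.47 without antibiotic (adjusted p = 0.014, limma). Leaving out ileum replicate 1 or 3 of the mice without antibiotic gave adjusted p = 0.0522 and 0.0669.

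Pla2g2a, the antibacterial phospholipase, passed between tissues with vancomycin. It stood at 16.67, 16.09 and 15.93 in vancomycin ilea, 16.26, 16.03 and 15.82 in ilea without antibiotic, 13.71, 14.86 and 14.25 in vancomycin colons, and 15.29, 14.80, 15.47 and 16.26 in colons without antibiotic. The vancomycin ilea lay above all vancomycin colons, while without antibiotic the highest ileum and the highest colon had the same value. The ileum was higher by 1.96 ± 0.34 with vancomycin (adjusted p = 0.00114, limma), and its difference without antibiotic was 0.58 ± 0.32 (adjusted p = 0.249, limma). RefSeq lists the C57BL/6J copy of the gene as a transcribed pseudogene. Among its relatives, Pla2g10 was lower in ileum by -3.94 ± 0.25 with vancomycin and by -4.02 ± 0.24 without antibiotic (adjusted p = 7.31e-08 and 2.46e-08). Pla2g2f was lower by -2.0 ± 0.47 with vancomycin and by -2.50 ± 0.44 without antibiotic (adjusted p = 0.00974 and 0.000959).

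Itln1, the lectin, did not pass between tissues under either treatment. It stood at 15.02, 13.12 and 13.35 in vancomycin ilea, 12.52, 13.64 and 13.14 in ilea without antibiotic, 13.49, 12.25 and 12.42 in vancomycin colons, and 12.65, 12.34, 13.55 and 11.73 in colons without antibiotic. All 4 groups overlapped with their neighbours in the order of means. The ileum minus colon difference was 1.11 ± 0.52 (95% interval -0.01 to 2.23) with vancomycin (adjusted p = 0.193, limma) and 0.53 ± 0.49 (-0.52 to 1.58) without antibiotic (adjusted p = 0.536, limma). With the replicate number as a block the vancomycin difference of 1.11 passed (adjusted p = 0.0374).

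Without vancomycin ileum replicate 11, the 8 ileum minus colon differences under vancomycin became 4.46 for Lyz1, 4.61 for Pnliprp2, 1.74 for Pla2g2a, 0.51 for Itln1, -0.18 for Ang4, -2.23 for Nupr1, -2.85 for Mptx2 and -4.20 for Mptx1. The same 6 genes passed, with Pnliprp2 counted although it was chosen by its ileal values, and the sign of Ang4 turned.

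**Figure D2:**
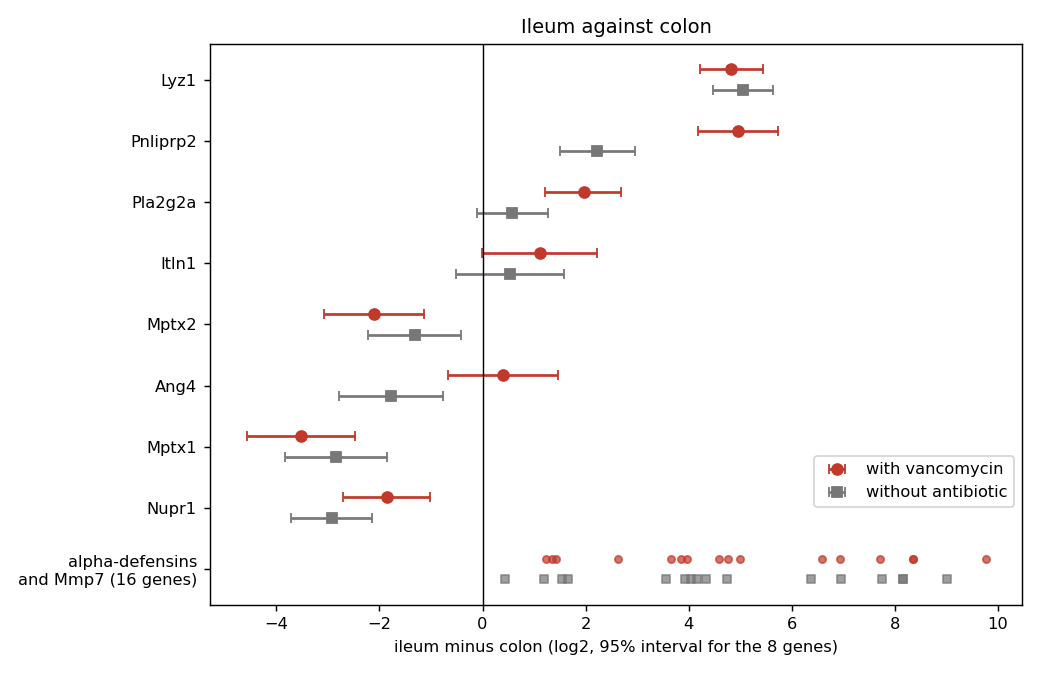
Ileum minus colon difference (horizontal axis, log2) of the 8 genes with 95% intervals, with vancomycin (circles) and without antibiotic (squares). The bottom row gives the 16 measured genes of the alpha-defensin and Mmp7 list as points without intervals. All 16 points of the bottom row lie above 0 under both treatments, while 3 of the 8 genes lie below 0 under both.

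The alpha-defensins and Mmp7 had 1 direction between the tissues, where the 8 genes had both. Of 25 listed alpha-defensins and Mmp7, the protease that activates them, 16 were measured. The array also measures Defa30 and Defa32, named below, which were not on the list. All 16 were higher in ileum with vancomycin (median 4.68, range 1.23 to 9.76), and 15 passed without antibiotic (median 4.25, range 0.43 to 9.01). The median over all probe sets was -0.04 in both comparisons. Mmp7 was higher by 4.77 ± 0.44 with vancomycin and by 4.75 ± 0.41 without antibiotic (adjusted p = 3.29e-06 and 1.23e-06). Defa34 was higher by 9.76 ± 0.54 with vancomycin and by 9.01 ± 0.50 without antibiotic (adjusted p = 1.54e-08 and 1.38e-08). Defa24 was higher by 7.72 ± 0.44 with vancomycin and by 7.75 ± 0.42 without antibiotic. Defa3 and Defa17 had identical values in all arrays and cannot be told apart here. Each was higher by 8.36 ± 0.31 with vancomycin and by 8.16 ± 0.29 without antibiotic. Over the 8 genes the median was 0.75 with vancomycin and -0.39 without antibiotic.

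Regulators of the Paneth cell lineage and its granules did not share one direction. Of 21 measured, 2 were higher and 5 lower in ileum with vancomycin, and 2 were higher and 8 lower without antibiotic. Over all probe sets 7.67% were higher and 7.45% lower with vancomycin, and 9.59% higher and 11% lower without antibiotic. Fzd5, a Wnt receptor needed for Paneth cell maturation, was higher in ileum by 0.66 ± 0.16 with vancomycin and by 0.56 ± 0.15 without antibiotic (adjusted p = 0.011 and 0.0149). Rab8a, which acts in vesicle transport, was higher by 0.95 ± 0.23 with vancomycin and by 0.83 ± 0.22 without antibiotic (adjusted p = 0.0115 and 0.0142). Creb3l1, a transcription factor of secretory capacity, was lower by -2.97 ± 0.26 with vancomycin and by -3.41 ± 0.24 without antibiotic (adjusted p = 1.63e-06 and 1.49e-07). Ern2, the stress sensor of mucus-making cells, was lower by -1.53 ± 0.21 with vancomycin and by -1.75 ± 0.19 without antibiotic (adjusted p = 0.000129 and 1.36e-05). Ern2 stands on the list though it is known from other cells, and which cells these differences come from was not tested. Sox9 was lower by -1.34 ± 0.35 with vancomycin and by -2.18 ± 0.33 without antibiotic (limma adjusted p = 0.0173 and 0.000225). In the same order Ephb3 was at -1.78 ± 0.24 and -1.54 ± 0.23 (limma adjusted p = 0.000133 and 0.000187). Tcf7l2 was at -1.71 ± 0.23 and -0.63 ± 0.21 (limma adjusted p = 0.000108 and 0.0477).

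Secretory cells of the colon crypt were looked at because part of the 8 genes was higher in colon. Of 6 genes of colonic deep crypt secretory cells, 0 passed with vancomycin and 5 were lower in ileum without antibiotic. The lower ones ran from -0.86 ± 0.18 (Agr2) to -2.23 ± 0.49 (Kit). Of 12 goblet cell genes, 2 were higher and 2 lower in ileum with vancomycin, and 6 were lower without antibiotic. The shares of all probe sets are those given for the regulators. With vancomycin Tff3 (1.39 ± 0.29) and Zg16 (1.64 ± 0.29) were higher, and Retnlb (-2.85 ± 0.65) and Fxyd3 (-1.26 ± 0.31) lower. Without antibiotic Retnlb was at -3.80 ± 0.61 and Fxyd3 at -2.24 ± 0.29. Agr2 and Spink4 stand on both lists. Muc2, the main gel-forming mucin, had differences of 0.23 ± 0.18 with vancomycin (adjusted p = 0.475) and of -0.31 ± 0.17 without antibiotic (adjusted p = 0.248). The part of these cell types in the levels of Mptx1, Mptx2, Nupr1 and Ang4 was not tested.

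The second question was how vancomycin related to the 8 genes in each tissue. In the ileum, Pnliprp2 and Ang4 were the genes whose vancomycin and no antibiotic values did not overlap, both higher with vancomycin. The choice of genes used this comparison, so differences are given with intervals and no p. The arrays are those of the tissue comparisons above. Of the 8 genes 1 passed the threshold, Pnliprp2, where 0.536% of all probe sets passed and 0.0511% as higher. Values did not overlap in 2 of 8 genes, against 16.9% of all probe sets. Nothing is read from these counts.

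Pnliprp2 was higher in vancomycin ilea by 2.0 ± 0.36 (95% interval 1.22 to 2.78), with means of 12.82 ± 0.61 in vancomycin ilea and 10.82 ± 0.60 in ilea without antibiotic (SD, n = 3 each). Without vancomycin replicate 11 the difference was 1.64, and over all 6 ways to leave out 1 ileal array it ran up to 2.22. Its nearest non-overlap was 12.46 in the lowest vancomycin ileum against 11.25 in the highest ileum without antibiotic. Ang4 was higher by 1.21 ± 0.50 (0.14 to 2.28), and by 0.63 without replicate 11. The lowest vancomycin value was 13.35 and the highest value without antibiotic 13.20, so the Ang4 groups were nearly in contact.

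The other 6 genes overlapped between vancomycin and no antibiotic ilea. Their differences were 0.73 ± 0.52 (-0.39 to 1.85) for Itln1, 0.46 ± 0.39 (-0.38 to 1.31) for Nupr1, 0.19 ± 0.34 (-0.54 to 0.93) for Pla2g2a and 0.17 ± 0.29 (-0.45 to 0.78) for Lyz1. The pentraxins were the genes with a lower mean under vancomycin, at -0.38 ± 0.49 (-1.44 to 0.67) for Mptx1 and -0.53 ± 0.45 (-1.5 to 0.43) for Mptx2. Each interval covers 0 and also differences of over 0.5 in size. Without replicate 11 the values were 0.13 for Itln1, 0.09 for Nupr1, -0.03 for Pla2g2a, -0.21 for Lyz1, -1.06 for Mptx1 and -1.27 for Mptx2. Without vancomycin replicate 14 Mptx1 was at 0.10 and Mptx2 at -0.05, so the lower pentraxin means depend on which array is left out.

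**Figure D3:**
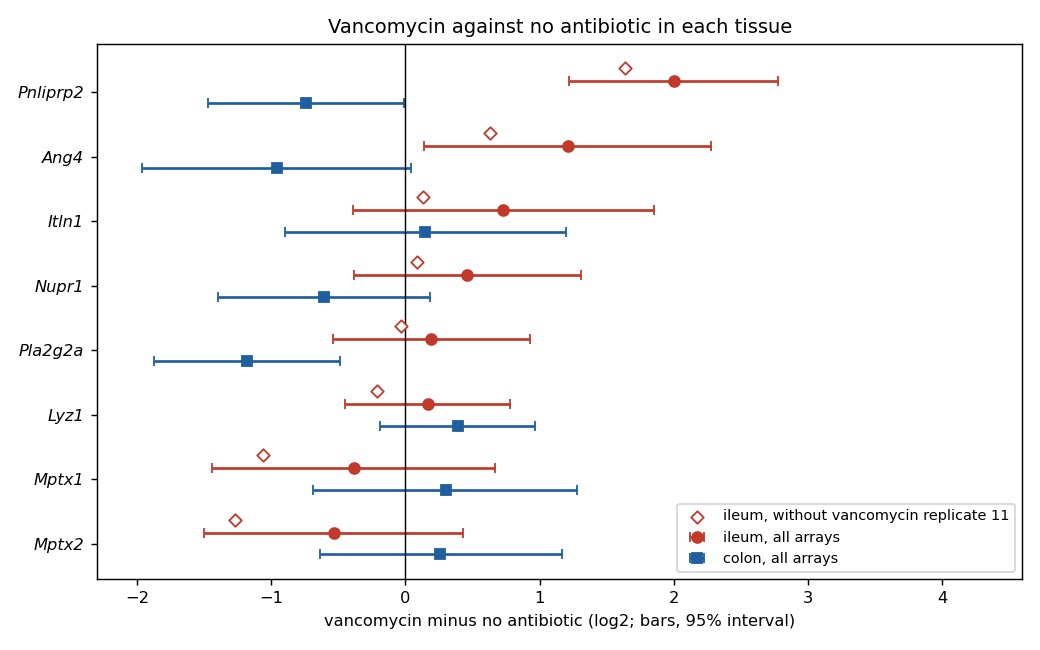
Vancomycin minus no antibiotic difference (horizontal axis, log2) of the 8 genes in ileum (circles) and colon (squares) with 95% intervals, and in ileum without vancomycin replicate 11 (open diamonds, no interval). Pnliprp2 is at 2.0 in ileum and -0.74 in colon, and every open diamond lies left of its circle.

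In the colon, 0 of the 8 genes passed for vancomycin, where 0.0102% of all probe sets passed (2 of 19572 in limma; 3107 had an unadjusted p under 0.05). At an unadjusted p under 0.05 there were 2 of the 8 genes, against 15.9% of all probe sets. Values did not overlap in 0 of 8 genes, against 12.3% of all probe sets. Without colon replicate 3 of the mice without antibiotic 217 probe sets passed, and without vancomycin colon replicate 11 109 passed, but 0 of the 8 genes did in any of the 7 ways to leave out 1 colon array.

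Pla2g2a had the lowest adjusted p of the 8, with a difference of -1.18 ± 0.32 (95% interval -1.87 to -0.49, adjusted p = 0.146, limma) and means of 14.27 ± 0.58 in vancomycin colons (SD, n = 3) and 15.46 ± 0.61 in colons without antibiotic (SD, n = 4). The groups overlapped through 1 array each, at 14.86 in vancomycin colon replicate 13 and 14.80 in colon replicate 2 of the mice without antibiotic. Pnliprp2 had a difference of -0.74 ± 0.34 (-1.47 to -0.01, adjusted p = 0.312, limma), opposite in sign to its ileal difference. Ang4 was at -0.96 ± 0.47 (-1.96 to 0.04, adjusted p = 0.332, limma) and Nupr1 at -0.61 ± 0.37 (-1.40 to 0.18, adjusted p = 0.43, limma). Lyz1 (0.39 ± 0.27), Mptx1 (0.30 ± 0.46), Mptx2 (0.26 ± 0.42) and Itln1 (0.15 ± 0.49) had positive differences with adjusted p = 0.496 to 0.911.

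Goblet cell genes were lower on average beside these values in the colon. Their list mean was 13.96 to 14.91 in vancomycin colons and 15.08 to 15.50 in colons without antibiotic. All 12 genes had a negative difference, with a median of -0.69 against 0.02 over all genes. Of the 12, 0 passed, where 0.0102% of all probe sets did. Muc2 was at -0.41 ± 0.17 (adjusted p = 0.259). The 6 deep crypt secretory genes share Agr2 and Spink4 with the goblet cell list, so the lists are not separate. Their mean was 12.36 to 12.84 in vancomycin colons and 12.95 to 13.43 in colons without antibiotic. That of 10 epithelial genes was 14.31 to 14.59 in vancomycin colons and 14.60 to 14.76 in colons without antibiotic. Among single probe sets, 12.3% did not overlap between these groups. The part of these cell types in the colonic values of Ang4, Pla2g2a, Nupr1 and Pnliprp2 was not tested. In the ileum the goblet cell list mean was 14.27 to 14.52 with vancomycin and 14.32 to 14.56 without antibiotic.

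The vancomycin difference in ileum minus that in colon was 2.74 ± 0.50 (95% interval 1.67 to 3.80) for Pnliprp2, 2.17 ± 0.68 (0.70 to 3.63) for Ang4, 1.38 ± 0.47 (0.37 to 2.38) for Pla2g2a and 1.07 ± 0.54 (-0.08 to 2.23) for Nupr1. For Itln1 it was 0.58 ± 0.72, for Lyz1 -0.22 ± 0.39, for Mptx1 -0.68 ± 0.67 and for Mptx2 -0.80 ± 0.62, each with an interval that covers 0. This quantity contains the ileal comparison used in the choice, so no p is given. Of the 8 genes 1 passed, Pnliprp2, where 0.189% of all probe sets passed and 0.0307% as higher, and nothing is read from that. Without vancomycin ileum replicate 11 the values were 2.38 for Pnliprp2, 1.59 for Ang4, 1.15 for Pla2g2a, 0.70 for Nupr1, -0.02 for Itln1, -0.60 for Lyz1, -1.36 for Mptx1 and -1.54 for Mptx2. The sign of Itln1 turned.

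Alpha-defensins and Mmp7 gave 0 of 16 genes past the threshold for vancomycin in ileum (median 0.05, range -0.47 to 1.13) and 0 of 16 in colon (median -0.07, range -0.45 to 0.24). Over all probe sets 0.536% passed in ileum and 0.0102% in colon, so nothing is read from these counts. Without vancomycin ileum replicate 11 the ileal median of the 16 genes was -0.40 (range -1.10 to 0.89), again with 0 of 16 past the threshold, where 0.879% of all probe sets passed. Mmp7 was at -0.17 ± 0.44 in ileum (adjusted p = 0.935) and -0.19 ± 0.41 in colon (adjusted p = 0.862), and at -0.77 ± 0.33 in ileum without that array (adjusted p = 0.42). The 21 regulators, the 7 niche ligands, the 14 paralogs and the 14 stress response genes also had 0 genes past the threshold for vancomycin in either tissue. The shares of all probe sets are the same 0.536% and 0.0102%. Among the paralogs Ang2, a sister of Ang4, was at 0.79 in ileum (adjusted p = 0.459), with 8.52, 7.06 and 7.06 in vancomycin ilea and 6.59, 7.23 and 6.46 in ilea without antibiotic, which overlap. Without replicate 11 it was at 0.30 (adjusted p = 0.742).

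Since Pnliprp2 is best known from the pancreas, genes of pancreatic acinar cells were set beside it. Of 25 listed, 22 were measured, and 0 passed for vancomycin in either tissue. Over all probe sets 0.536% passed in ileum and 0.0102% in colon, so nothing is read from the 0. The mean of the 22 acinar genes was 8.07, 7.37 and 7.38 in vancomycin ilea and 7.75, 7.33 and 7.30 in ilea without antibiotic. Their part in the Pnliprp2 values was not tested. Clps, the cofactor of pancreatic lipase, had 10.80, 8.61 and 8.69 in vancomycin ilea and 8.64, 9.55 and 9.12 in ilea without antibiotic. Its difference was 0.26 ± 0.62 in ileum (adjusted p = 0.925) and -1.13 ± 0.58 in colon (adjusted p = 0.352). Pnliprp1, the nearest measured relative of Pnliprp2, was at 0.31 ± 0.36 in ileum (adjusted p = 0.81).

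In the colon the acinar list mean was 8.81 in vancomycin replicate 11 against 7.90 and 7.91 in the other vancomycin colons, and 9.18 in replicate 1 without antibiotic against 7.82 to 7.91 in the other colons without antibiotic. Pnliprp2 in these 2 arrays was at 8.34 and 8.70. Sycn and Cela1, which stand on the acinar list, were lower in ileum than in colon by -6.80 ± 0.31 and -3.49 ± 0.29 with vancomycin and by -7.35 ± 0.29 and -4.23 ± 0.27 without antibiotic, and Zg16 on that list is also a goblet cell gene, so the list mean is compared within a tissue only. Of 16 lipid hydrolysis genes, 0 passed for vancomycin in either tissue, against 0.536% of all probe sets in ileum and 0.0102% in colon.

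**Figure D4:**
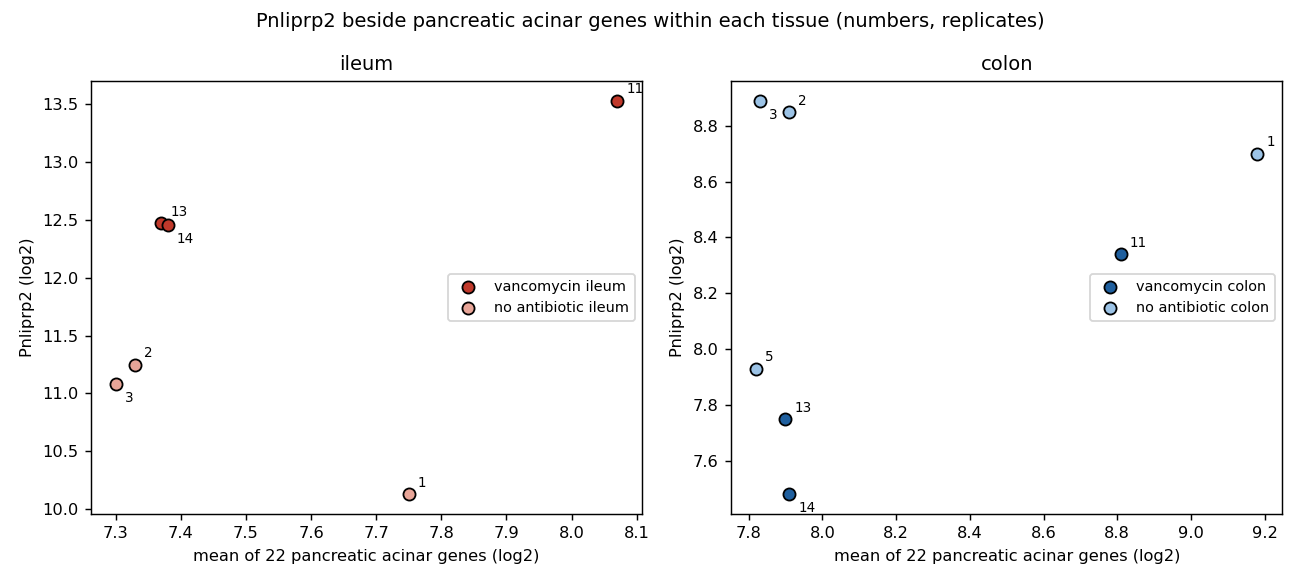
Pnliprp2 level (vertical axis, log2, own scale per panel) against the mean of 22 pancreatic acinar genes (horizontal axis, log2) in the 6 ileal arrays (left) and the 7 colon arrays (right), coloured by group and numbered by replicate. Vancomycin ileum replicates 13 and 14 have Pnliprp2 at 12.47 and 12.46 with acinar means of 7.37 and 7.38, and vancomycin ileum replicate 11 has the highest value of both in ileum.

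Within groups, the 8 genes deviated together in some arrays and were split in others. In no antibiotic colon replicate 1, 5 of the 8 lay above their group mean. In no antibiotic colon replicate 5 and no antibiotic ileum replicate 3, 3 of the 8 did. Over all probe sets the shares in these arrays were 47.9%, 48.6% and 49.8%. Vancomycin ileum replicate 11 was the highest of the 6 ileal arrays for 8 of 8 genes, as it was for 25.9% of all probe sets. It lay above its group mean by 0.44 (Pla2g2a) to 1.48 (Mptx2), and replicates 13 and 14 lay below it in all 8. In that array the alpha-defensin and Mmp7 mean was also high, at 12.64, where vancomycin replicates 13 and 14 had 11.37 and 11.14 and the ilea without antibiotic 11.15 to 12.07. Its enterocyte mean of 13.45 lay below the 14.16 and 14.56 of vancomycin replicates 13 and 14, and its epithelial mean of 14.41 below their 14.82 and 14.81. The ilea without antibiotic had enterocyte means of 14.12 to 14.74 and epithelial means of 14.92 to 14.99. The part of these cell types in the values of the array was not tested.

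Over all 13 arrays, deviations from the group means of Mptx1 and Mptx2 had a Pearson r of 0.95, the highest of 28 gene pairs. The median over the pairs was 0.62, with 26 of 28 above 0. These figures were not computed for other gene pairs, nor without vancomycin ileum replicate 11, which was high for all 8 genes. The arrays share preparation and normalization, so the correlations are a description. Pla2g2a followed the others least, with r of -0.34 with Pnliprp2, -0.18 with Itln1, 0.02 with Ang4 and 0.07 with Mptx1. Its other r values were 0.18 with Nupr1, 0.26 with Mptx2 and 0.40 with Lyz1. In vancomycin colon replicate 11, for example, Ang4 was 1.10 above its group mean and Pla2g2a 0.56 below (a deviation of -0.56).

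**Figure D5:**
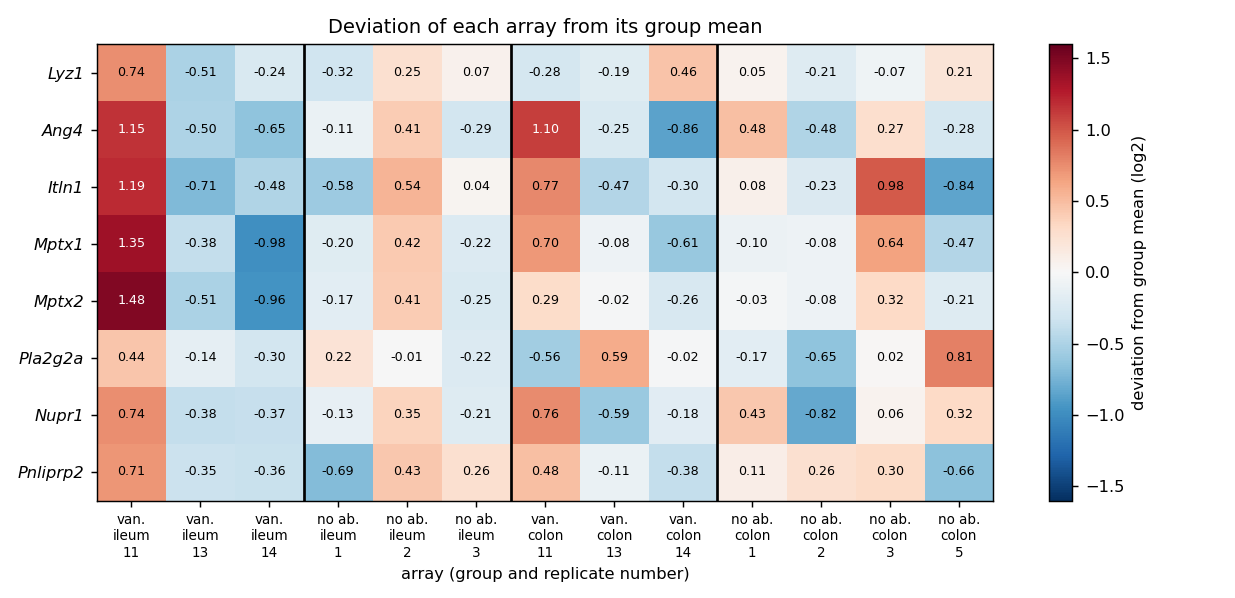
Deviation of each array (columns, by group and replicate) from its group mean (colour and printed value, log2) for the 8 genes (rows). The first column, vancomycin ileum replicate 11, is positive in all 8 rows, from 0.44 to 1.48, and Mptx1 and Mptx2 have the same sign in every column.

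The genes whose levels were most like each of the 8 over the 13 arrays, which share the difference between tissues, were found by Pearson's r. For Lyz1 they were the defensins Defa30, Defa41 and Defa3 (r = 0.996, 0.994 and 0.992). For Pnliprp2 they were Defa20 and Defa32 (r = 0.954 each) and Ghr, the growth hormone receptor (0.951). For Ang4 the first by level included its paralog Ang2 (r = 0.942), after Calhm5 (0.949). For Mptx1 and Mptx2 they included Nek4 (r = 0.977 and 0.961), for Nupr1 Iffo2 (0.986) and for Pla2g2a Fchsd1 (0.99), while Itln1 had no gene above 0.868 (Bloc1s1). By deviations from group means, Lyz1 was nearest to BC006965 (0.964) and also near Defa41 (0.921), Ang4 had Clps among its 3 nearest (0.959), and Pnliprp2 was nearest to Lurap1 (0.941). These are the highest of the correlations with all named genes and carry no p.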

How the data were processed

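RNA from 13 samples was labelled with biotin and hybridised to Affymetrix mouse arrays, per the labels. The deposited log2 values, 1 per probe set and array, come from the authors, whose processing notes name RMA and, in version 1.4.1.46, Affymetrix Expression Console, without saying what each did. RMA corrects background, quantile-normalizes and summarizes probes. Of 28846 probe sets, 19572 had 1 gene symbol in the platform annotation and 9274 had none; 437 held a value above 16. The number of arrays limits the precision.

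Group means of all 13 arrays were fitted with limma 3.58.1 (R 4.3.3, lmFit and eBayes), with p-values adjusted by Benjamini-Hochberg over 19572 probe sets and a threshold of 0.05; errors of differences are standard errors of that fit. The 8 genes, the gene lists and the tests were chosen with earlier results of these data known. All 8 genes are named in every comparison, with genes of the companion lists that passed, at most the 4 with the smallest p per list and direction, with Clps, Mmp7, Lyz2 and Muc2, the 3 brightest genes of the acinar, paralog and stress lists, and the 3 genes most like each of the 8; of these, the ones that stand beside a result are given. No detection calls were used, so low levels are not called absent. The alternatives were 1 probe set per gene against their mean, a fit of the compared groups alone, array weights, a trended robust prior, median centring, repeated quantile normalization, a filter on dim probe sets, the replicate number as a block, and leaving out each array. Log2 changes of 1 and 2 were looked for in simulated data with 200 changed among 19572 probe sets. They were recovered in 62.7% and 98.5% of cases for ileum against colon without antibiotic (8.9% of calls false). The shares were 58.2% and 94% for vancomycin in ileum (6.7%), and 31.3% and 83.6% for the difference of effects (10.6%). The simulated noise was independent for each probe set, so no simulated array was high for many genes together. Vancomycin ileum replicate 11 was, so these rates need not hold for the real arrays. The replicate numbers recur in both tissues, but the labels do not say that they mark a mouse. Deviations of same-numbered arrays correlated above 0.1 in 3 of 6 pairs (-0.0162 to 0.236). These were vancomycin replicates 11, 13 and 14 (0.236, 0.176 and 0.107). That does not settle whether the tissues share mice, and the arrays were fitted as unpaired, with the block as an alternative. Promoter windows were aligned with Biopython 1.88.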

Additional observations from a re-analysis of the deposited data

Results flagged for a closer look

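The vancomycin difference of Pnliprp2 was 2.74 higher on the log2 scale in ileum than in colon, and it is listed as a difference between the tissues. The gene was chosen for its ileal values, which enter this difference, so no p is given and nothing is read from the listing. Of 8 sets of 4 arrays looked at for 1 array far from the others, 0 were listed, where chance lists about 1 in 20. These sets were the 8 genes in colon without antibiotic. The groups of 3 arrays, and so vancomycin ileum replicate 11, were not looked at in this way.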

How the results depend on the processing

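Of 624 values of the 8 genes under the alternatives, 610 kept their sign, 14 turned it, and 11 crossed the threshold. For vancomycin in ileum, untested, Lyz1 turned to -0.24 with array weights and -0.21 without vancomycin replicate 11, Pla2g2a to -0.03 without that replicate, and Mptx1 to 0.10 without replicate 14. For the difference of the effects Itln1 turned to -0.04 and -0.02 with array weights and without vancomycin ileum replicate 11, and Lyz1 to 0.01 and 0.03 without vancomycin colon replicate 14 and ileum replicate 13. The companion lists without vancomycin ileum replicate 11 were added after seeing the data. In colon with vancomycin, Itln1 turned to -0.13 without no antibiotic replicate 5 and to -0.23 without vancomycin replicate 11, and Mptx1 to -0.05 without vancomycin replicate 11; with 1 array left out they reached 0.48 and 0.60. Between the tissues under vancomycin, Ang4 turned to -0.01 with array weights, -0.03 without colon replicate 14 and -0.18 without ileum replicate 11, and with 1 array left out reached 0.95. The number of probe sets past the threshold for vancomycin in ileum, 105 in all arrays, was 20 in a fit of the 2 groups alone, 1012 with array weights, and 40 to 172 with 1 array left out. The number among the 8 genes there was 0, 2 (Mptx2 and Pnliprp2) and 0 to 2 in the same settings, in place of 1. It was 0 when vancomycin replicate 13 or replicate 1 or 3 of the other ilea was dropped, and 2 when vancomycin replicate 11 was. Pnliprp2 was chosen by this comparison, so nothing is read from these counts among the 8 genes. In colon the 2 probe sets became 0 in a fit of the 2 groups alone, 38 with array weights, 0 with median centring, 1 without the dimmest 33.3% of probe sets, and 0 to 217 with 1 array left out. Between the tissues under vancomycin the 2961 became 1875 in a fit of the 2 groups alone and 4903 with array weights. For the difference of the vancomycin effects the 37 became 191 with array weights and 23 with the replicate block. With 1 array left out it ran from 12 to 84, with 0 to 1 of the 8 genes. The ileal comparison is part of this quantity, so nothing is read from the count among the 8 genes. Mptx2 between the tissues without antibiotic was at adjusted p = 0.0523 with a trended robust prior, and under vancomycin at 0.0587 in a fit of the 2 groups alone. With the replicate block Itln1 passed between the tissues under vancomycin (1.11, adjusted p = 0.0374), and the block changed no other call of the 8 genes. In 3 of 6 cases an ileal array correlated best with the colon array of its own number, among the 3 or 4 colon arrays of its treatment. The cause of these shifts was not tested.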
